A study of Mus musculus with 36 samples.

Results

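The genes described here are the 39 protein-coding genes of the mouse Hox clusters A to D, out of 21951 protein-coding genes in GENCODE M21 (mm10). They were chosen by symbol alone: 11 in HoxA, 10 in HoxB, 9 in HoxC and 9 in HoxD. ChIP-Seq peaks for H3K27me3 (K27me3) and H3K4me3 (K4me3) were available from the whole pancreas of 12 mice, 3 of each of 4 genotypes. All mice were 2 to 4 months old, received tamoxifen by oral gavage and were sampled 22 days later. WT mice are labelled Wildtype, and the study describes its controls as C57BL/6 or carriers of Mist1creERT alone. EZ mice carried Mist1creERT/+ and EZH2ΔSET, in which the exons that encode the catalytic SET domain are flanked by loxP sites. KR mice carried Mist1creERT/+ and another allele that Cre acts on, which is not described here. KE mice carried Mist1creERT/+, that allele and Ezh2ΔSET. Mist1creERT acts in pancreatic acinar cells, so other cell types of the whole tissue were not targeted, and fewer marked cells cannot be told apart from less mark per cell.

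Hox genes encode homeodomain transcription factors that give cells their position along the body axis. Within a cluster the genes lie in a fixed order of paralog groups, from anterior (1) to posterior (13), and paralogs in different clusters are related by descent. In tissues where they are silent, whole clusters lie under domains of K27me3, the mark that EZH2 and its homologue EZH1 deposit as part of Polycomb repressive complex 2, while K4me3 marks active or poised promoters. Promoters with both marks are called bivalent.

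The peak lists hold positions only. They contained 21420 to 31274 K27me3 peaks and 17400 to 26081 K4me3 peaks per mouse, with no read counts, so the depth behind a peak is unknown and the absence of a peak does not show absence of the mark. All 12 acinar cell markers listed, among them Cpa1, Ptf1a and Bhlha15 (Mist1), had a K4me3 peak within 3 kb of a transcription start site (TSS) in every mouse. K27me3 in 2 WT mice stood apart. WT1 had peaks near 10.6% of protein-coding genes and WT2 near 24.6%, against 12.3% to 15.8% in the other mice.

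K4me3 recurred at 5 places in the clusters, in 11 or 12 of the 12 mice. The sequences at the centres of the 3 of these that lie outside annotated exons are shown first, because they carry the K4me3 that was called regardless of genotype. Each is 300 bases of the plus strand of the RefSeq GRCm38.p6 genome, with CG dinucleotides in capitals. The HoxB sequence lies between Hoxb5 and Hoxb4 at chr11:96311390-96311689, in no annotated gene. The HoxC sequence is at chr15:102999260-102999559, in introns of long transcripts of Hoxc6 and Hoxc5. The HoxD sequence is at chr2:74672771-74673070, between Hoxd13 and Hoxd12.
HoxB region 7: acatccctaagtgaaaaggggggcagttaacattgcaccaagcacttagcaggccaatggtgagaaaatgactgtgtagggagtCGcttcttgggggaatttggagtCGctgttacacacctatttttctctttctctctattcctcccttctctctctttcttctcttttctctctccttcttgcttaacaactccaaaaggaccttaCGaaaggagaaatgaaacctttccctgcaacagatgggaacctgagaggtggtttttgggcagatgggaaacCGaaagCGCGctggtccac
HoxC region 3: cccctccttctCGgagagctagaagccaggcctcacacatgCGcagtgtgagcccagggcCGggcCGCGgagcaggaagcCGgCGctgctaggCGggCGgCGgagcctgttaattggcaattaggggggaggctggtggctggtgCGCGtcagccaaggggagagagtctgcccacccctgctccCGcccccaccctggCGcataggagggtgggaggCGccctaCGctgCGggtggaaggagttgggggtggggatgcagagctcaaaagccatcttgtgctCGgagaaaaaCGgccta
HoxD region 1: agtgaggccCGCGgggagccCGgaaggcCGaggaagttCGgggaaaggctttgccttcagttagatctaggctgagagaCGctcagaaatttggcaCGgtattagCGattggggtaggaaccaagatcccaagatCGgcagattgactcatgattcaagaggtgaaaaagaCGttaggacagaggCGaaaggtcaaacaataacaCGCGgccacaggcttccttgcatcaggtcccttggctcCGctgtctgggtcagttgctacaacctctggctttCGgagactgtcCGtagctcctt
They contained 6 (HoxB), 19 (HoxC) and 16 (HoxD) CG dinucleotides. Among 32851 RefSeq promoter windows of the same length, the median was 7, 94.6% held at least 1 and 43.5% held at least 10. The 24 promoter windows that matched 22 of the 39 Hox genes had a median of 14.5, and 70.8% held at least 10. The other 2 places lie over exons at an upstream start of Hoxa7 and at the start of Hoxd9.

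K27me3 covered the Hox clusters almost completely in 11 of the 12 mice, whatever the genotype. Peak positions give no signal level, so near-complete cover does not show that the amount of K27me3 was unchanged. The 4 clusters together span 491.8 kb. The share of these bases under K27me3 peaks was 46.3%, 99.4% and 91.9% in the 3 WT mice. It was 93.0%, 91.5% and 98.8% in EZ mice. KR mice had 97.9%, 91.0% and 98.0%, and KE mice 98.8%, 95.7% and 97.5%. WT1 alone was low, and the ranges of the other 11 mice overlapped between genotypes. The group means were 79.2% ± 28.8 (SD, n = 3) in WT, 94.4% ± 3.87 in EZ, 95.6% ± 3.97 in KR and 97.3% ± 1.54 in KE. KR exceeded WT by 16.4 percentage points (p = 0.7, exact two-sided permutation test), KE exceeded WT by 18.1 (p = 0.4, exact test), EZ exceeded WT by 15.2 (p = 0.7, exact test) and KE exceeded KR by 1.70 (p = 0.7, exact test). With 3 mice against 3 this test cannot go below 0.1. Without WT1, the differences from WT were -0.033 points for KR, 1.67 for KE and -1.27 for EZ.

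**Figure D1:**
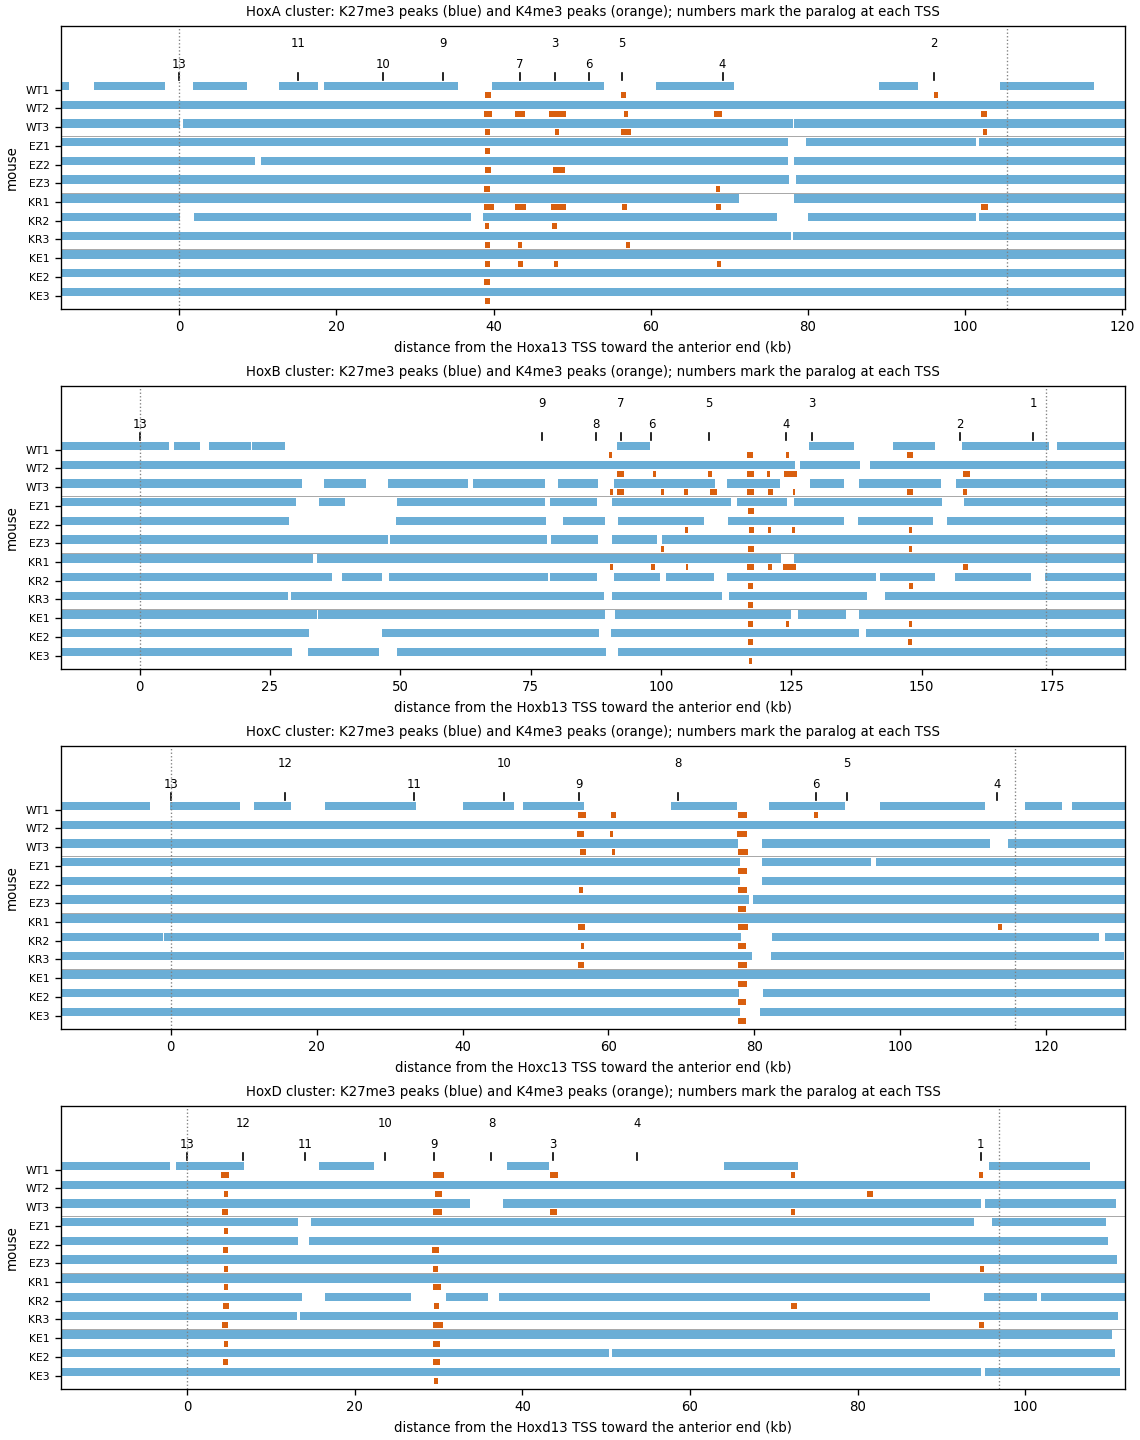
K27me3 peaks (blue) and K4me3 peaks (orange) along each Hox cluster, 1 row per mouse, against the distance in kb from the TSS of the paralog 13 gene toward the anterior end; dotted lines mark the ends of the cluster and numbers the paralog at each representative TSS. Blue covers most of each cluster in 11 mice, with gaps in HoxB most often, and much less in WT1, and short orange peaks recur at several places.

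WT1 was also the lowest mouse in each single cluster. In HoxA (chr6:52155590-52260880), K27me3 covered 56.0% in WT1 and 92.6% to 100% in the other 11 mice. HoxB (chr11:96194316-96368256) had 36.9% in WT1 and 79.2% to 98.3% in the others. The HoxC values (chr15:102921103-103036852) were 65.7% and 94.9% to 100%, and those of HoxD (chr2:74668310-74765142) 29.3% and 85.0% to 100%. In HoxA the KE mice, all at 100%, were above the KR mice at 95.3% ± 3.93 (SD, n = 3), a difference of 4.75 points at p = 0.1 in the exact permutation test (adjusted p = 0.356 over 32 comparisons). In the other comparisons of single clusters the K27me3 ranges of the groups overlapped. HoxB was the least complete of the 4 by its lowest and highest values, leaving WT1 out. The 2 longest shared gaps in the other 11 mice lay in HoxB. The first, 3 kb at chr11:96238316-96241315, was 30.1 kb from the Hoxb9 TSS in the long stretch between Hoxb13 and Hoxb9 (up to 4 mice without K27me3). The second, at chr11:96282316-96285315 within Hoxb8, was without it in up to 5 mice. A 2 kb gap in HoxC at chr15:103000103-103002102 was empty in up to 6 of the 11 mice, and it lay just past the HoxC sequence shown above.

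K27me3 peaks over the clusters were among the widest on the autosomes. Leaving WT1 out, the widest Hox peak of a mouse measured 54.0 to 259.6 kb and ranked between 1 and 9 among all autosomal K27me3 peaks of that mouse. It lay over HoxC in 10 of these mice and over HoxB in WT3. Between 5 and 9 of the 100 widest autosomal peaks lay over a Hox cluster. In WT1 the widest Hox peak measured 14.3 kb and ranked 857. With peaks joined across gaps of up to 3 kb, 1 domain spanned HoxA in 9 mice, HoxD in 9, HoxC in 6 and HoxB in 4. Domains that spanned HoxC were 275.2 to 345.6 kb long, against a cluster length of 115.8 kb, so they ran past both ends.

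All 39 genes had a K27me3 peak within 3 kb of a TSS in all 11 mice other than WT1, where 34 had one. The 5 without were Hoxb4, Hoxb5, Hoxb8, Hoxb9 and Hoxd9. In all 3 mice of a genotype, the counts were 34 in WT, 39 in EZ, 39 in KR and 39 in KE, where 5.78%, 7.38%, 8.32% and 9.94% of all protein-coding genes met the same rule. No Hox gene had K27me3 in all 3 mice of 1 genotype and in none of another, as 4% of all protein-coding genes did. The percentage of Hox genes with K27me3 exceeded that of all protein-coding genes by 84.2 points ± 4.01 (SD, n = 12 mice), in 12 of 12 mice (p = 0.000488, the smallest that 12 mice allow, exact two-sided sign-flip permutation test; adjusted p = 0.000977 over 6 tests). It also exceeded that of 102 non-Hox homeobox genes by 18.5 points ± 10.5 in 12 of 12 mice (p = 0.000488, exact test; adjusted p = 0.000977).

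Single genes were described by the bases under peaks within 3 kb of 1 representative TSS, a window of 6001 bp. Outside WT1, 21 of the 39 windows were covered entirely by K27me3 in every mouse, against 0.661% of all protein-coding genes. WT1 had 6 such windows and the other mice 25 to 37 each, where 2.13% of all genes had one in WT1 and 3.19% to 10.5% in the other mice. At the posterior ends, Hoxb13 was covered in full in all 12 mice. Hoxd13 had 5340 bp in WT1 and 6001 bp elsewhere. Hoxc13 had 3153 bp in WT1 and 5747 bp in KR2, and was full in the others. For Hoxa13, WT1 had 2464 bp, KR2 4140 bp and WT3 5535 bp. At the anterior ends, Hoxb1 was short in KR2 alone, at 3400 bp. The window of Hoxc4 held 1311 bp in WT1 and 3541 bp in WT3. Hoxd1 had 1980 bp in WT1, 2550 bp in KR2, 3891 bp in EZ1, 5535 bp in WT3 and 5570 bp in KE3. Incomplete cover therefore fell on WT1 at 5 of these 7 end genes and on KR2 at 4.

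**Figure D2:**
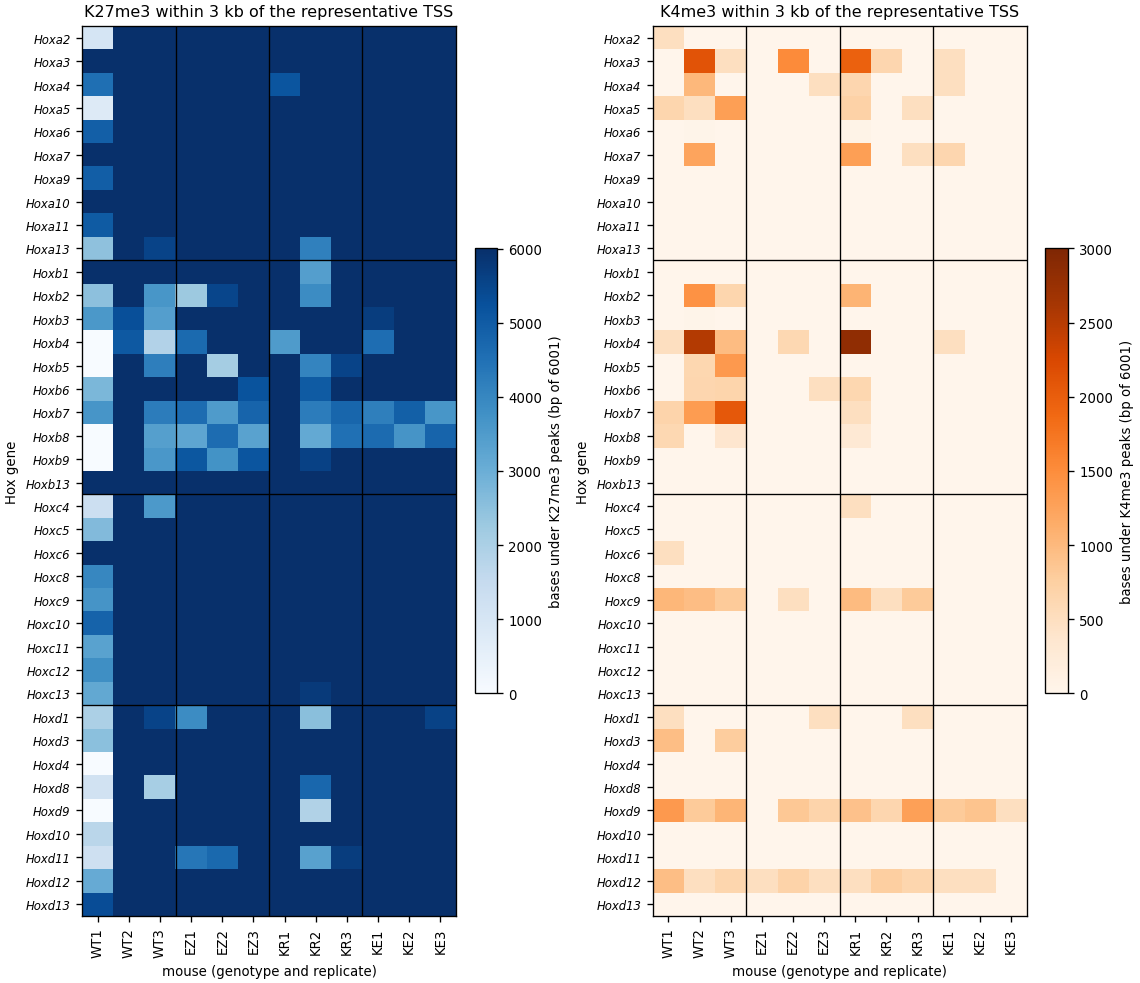
Bases under K27me3 peaks (left, blue) and K4me3 peaks (right, orange) in the 6001 bp window around the representative TSS of 38 of the Hox genes (rows) in each mouse (columns); colour scales are in bp and differ between the marks. K27me3 windows are full in most mice outside WT1 and parts of HoxB, and K4me3 is mostly absent from the posterior genes.

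Hoxb3 was the only Hox gene whose K27me3 cover did not overlap between groups. It held 3572, 5292 and 3409 bp in the WT mice and 6001 bp in all EZ and all KR mice. KE mice had 5683, 6001 and 6001 bp. Every mutant mouse was above every WT mouse, and this held with WT1 left out. The mean difference was 1910 bp for EZ, 1910 bp for KR and 1804 bp for KE, all against the same 3 WT mice. The share of all genes with any K27me3 whose cover was higher in all 3 mice was 1.84% for EZ, 2.01% for KR and 3.48% for KE. This count, 1 of 39 genes, is near the background, as it is without WT1 (2.81%, 2.98% and 4.38% of all genes). No Hox gene was lower than WT, where 0.309%, 4.8% and 0.27% of genes were. In KE against KR no Hox gene was apart in either direction, with 12.7% of genes higher and 2.92% lower. Between 25 and 37 of the 39 windows were already full in each KR and KE mouse, so most Hox genes could not be higher in KE. Hoxb7 and Hoxb8 stayed short of full cover in most mice: Hoxb7 was full in WT2 and KR1 only and ranged from 3505 to 4892 bp elsewhere, and Hoxb8 was full in the same 2 mice and ranged from 0 to 4797 bp elsewhere.

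Along the paralog axis, K27me3 cover was slightly higher in posterior than in anterior genes. The 16 genes of groups 9 to 13 exceeded the 12 genes of groups 1 to 4 by 3.67 percentage points ± 5.61 (SD, n = 12 mice), with 8 mice above 0 and 3 below (p = 0.0371, exact sign-flip permutation test; adjusted p = 0.0445). The adjusted p rose to between 0.0703 and 0.0891 when any 1 of WT1, WT2, WT3, EZ1, KR1, KR2 or KE1 was left out. Groups 10 and 12 were covered in full in every mouse but WT1. Groups 7 and 8, in the middle of the axis, had the lowest medians over these 11 mice, 88.4% and 91.7%. Of the 2 genes in group 7, Hoxa7 was covered in full in all 12 mice, so the low values were those of Hoxb7.

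**Figure D3:**
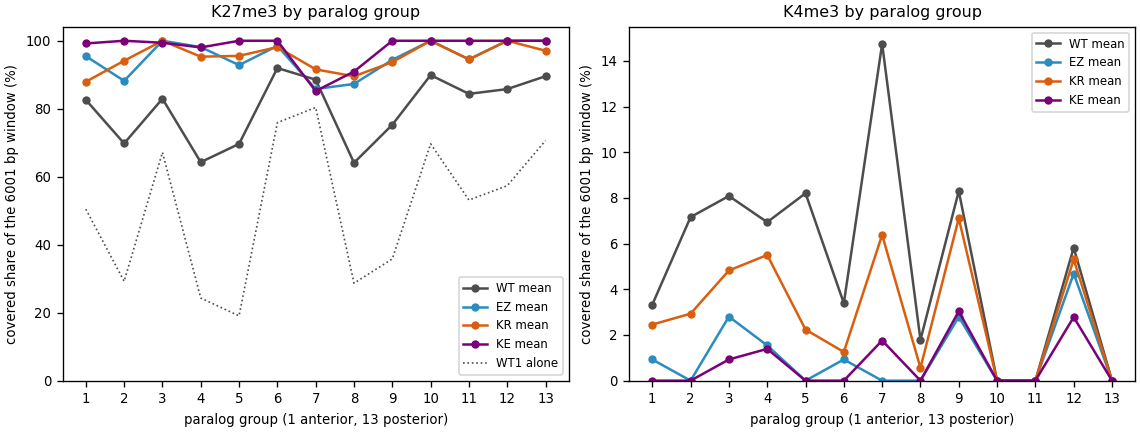
Mean share of the 6001 bp window under K27me3 (left) and K4me3 (right) for each paralog group, 1 line per genotype (mean of 3 mice), with WT1 alone dotted on the left. The K27me3 lines of EZ, KR and KE mice all dip at groups 7 and 8 relative to groups 6 and 9, and K4me3 is absent at groups 10, 11 and 13.

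K4me3 was sparse over the clusters, and it covered less of them in each EZ and KE mouse than in any WT mouse. It covered 2.63%, 4.04% and 3.59% of the clusters in WT mice and 0.697%, 1.78% and 1.31% in EZ mice. KR mice had 3.70%, 1.33% and 1.43%, and KE mice 1.39%, 1.03% and 0.579%. Every EZ and KE mouse was below every WT mouse, while KR1 lay among the WT mice and KR2 and KR3 did not. The means were 3.42% ± 0.722 (SD, n = 3) in WT, 1.26% ± 0.543 in EZ, 2.16% ± 1.34 in KR and 0.997% ± 0.404 in KE. KE differed from WT by -2.42 points and EZ from WT by -2.16 points, both at p = 0.1, the smallest p this exact permutation test can give (adjusted p = 0.333 over 20 comparisons). KR differed from WT by -1.27 points (p = 0.3, exact test) and KE from KR by -1.16 (p = 0.2, exact test), and the ranges overlapped. Leaving out KR1 moved both: the differences were then -2.04 points for KR against WT (p = 0.1, exact test) and -0.387 for KE against KR (p = 0.3, exact test). With K4me3 peaks under 1 kb left out, the differences from WT were smaller, -1.39 points in KE and -1.19 in EZ.

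By cluster, the WT means were 3.67% ± 2.31 in HoxA, 3.99% ± 1.84 in HoxB, 2.57% ± 0.333 in HoxC and 3.15% ± 1.18 in HoxD (SD, n = 3). In HoxB, HoxC and HoxD every EZ and every KE mouse was below every WT mouse. KE differed from WT by -3.14, -1.59 and -2.05 points in these clusters and EZ by -2.72, -1.39 and -1.88 (each p = 0.1, exact permutation test; adjusted p = 0.356 over 32 comparisons). KE was also apart from KR in HoxC (-0.905 points) and HoxD (-0.935 points), each at p = 0.1 in the exact test (adjusted p = 0.356). In HoxA the groups overlapped, with differences of -2.51 points for KE and -2.34 for EZ (each p = 0.2, exact test). These were -1.20 and -1.03 without WT2, the WT mouse with the most HoxA K4me3. Without WT1 they were -3.38 and -3.21 (each p = 0.1, exact test).

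The number of Hox genes with a K4me3 peak within 3 kb of a TSS followed the same order. It was 14, 16 and 17 in WT mice, 3, 9 and 8 in EZ mice, 16, 8 and 7 in KR mice, and 8, 5 and 3 in KE mice. WT had on average 15.7 ± 1.53 genes (SD, n = 3), EZ 6.67 ± 3.21, KR 10.3 ± 4.93 and KE 5.33 ± 2.52. Every EZ and KE mouse had fewer than every WT mouse, with mean differences of -10.3 genes for KE and -9 for EZ (each p = 0.1, exact permutation test; adjusted p = 0.333). Neither KR against WT (-5.33 genes, p = 0.3, exact test) nor KE against KR (-5 genes, p = 0.3, exact test) was apart. Without KR1 these were -8.17 and -2.17 genes. With peaks under 1 kb left out, KE differed from WT by -5 genes and EZ by -4.67. Over all protein-coding genes the share with K4me3 varied only between 60.4% and 63.4% per mouse. The non-Hox homeobox genes varied more. Of these 102 genes, 62, 41 and 51 had K4me3 in WT mice and 47, 51 and 45 in EZ mice. KR mice had 51, 53 and 50, and KE mice 34, 49 and 45. The EZ, KR and KE ranges each overlapped with that of WT, and every KE mouse was below every KR mouse. Whether the lower K4me3 was particular to Hox genes was not tested. For Hox genes with K4me3, the differences KE minus KR and EZ minus WT were not separated by a test of the difference between them (4 genes, p = 0.535, exact permutation test; adjusted p = 0.925).

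Library features were set beside these counts. K4me3 peak numbers were 24806, 17400 and 24209 in WT, 25886, 24875 and 24919 in EZ, 23041, 24711 and 22793 in KR, and 21815, 26081 and 23749 in KE. Every EZ list thus held more K4me3 peaks than every WT list, while KR and KE overlapped with WT, and WT2 had the fewest peaks together with the most Hox K4me3 bases. Of 8 mesenchyme markers, 5, 4 and 6 had K4me3 in WT mice, 3, 3 and 6 in EZ, 4, 3 and 3 in KR, and 3, 5 and 4 in KE, with Col1a2 at 0 in every mouse. Of 6 immune markers, 4 had K4me3 in WT2 and in KR1 and 1 or 2 in the other mice. The T cell gene Cd3e had it in WT2 and KR1 only, Cd68 in all 12 mice, and Csf1r and Adgre1 in none. WT2 and KR1 were also the mice with the most Hox K4me3 by covered bases, 19881 and 18192 bp. WT3, with 1 immune marker, had 17670 bp and the most Hox genes with K4me3, 17. The part of other cell types in the Hox K4me3 was not tested.

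**Figure D4:**
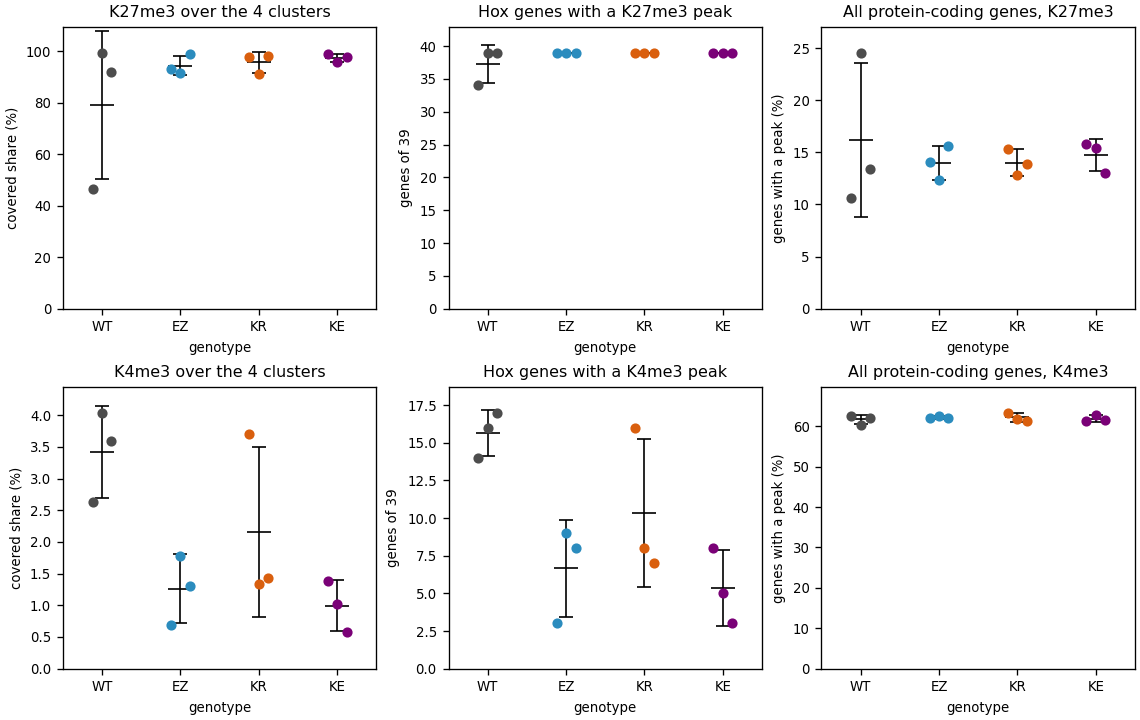
Per-mouse values by genotype for K27me3 (top) and K4me3 (bottom): covered share of the 4 clusters (%), Hox genes with a peak (of 39), and all protein-coding genes with a peak (%); dots are mice, bars the mean ± SD of 3 mice. The Hox K4me3 values of all EZ and KE mice lie below those of all WT mice, while the share over all genes stays between 60.4% and 63.4%.

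In all 3 mice of a genotype, 9 Hox genes had K4me3 in WT, 3 in EZ, 5 in KR and 3 in KE, against 57.9%, 60.8%, 60% and 59.8% of all protein-coding genes. The WT genes were Hoxa5, Hoxa7, Hoxb3, Hoxb4, Hoxb7, Hoxc6, Hoxc9, Hoxd9 and Hoxd12. The EZ genes were Hoxa7, Hoxc6 and Hoxd12, the KR genes Hoxa7, Hoxc6, Hoxc9, Hoxd9 and Hoxd12, and the KE genes Hoxa7, Hoxc6 and Hoxd9. The lists turned on single mice and peaks: WT had 14 genes without WT1, EZ 6 without EZ1 and KE 5 without KE3, and with equal numbers of the widest peaks per mouse the lists held 3 genes in WT and 1 in each other genotype. Hox genes thus carried K4me3 less often than protein-coding genes at large. The percentage was lower by 37.7 points on average (difference -37.7 ± 12.9, n = 12 mice), in 12 of 12 mice (p = 0.000488, exact sign-flip permutation test; adjusted p = 0.000977). It was also lower than among the non-Hox homeobox genes (difference -22.9 ± 13.02 points), in 11 of 12 mice (p = 0.000977, exact test; adjusted p = 0.00146).

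K4me3 was called at 22 of the 39 genes in at least 1 mouse and at 17 in none (Hoxa9, Hoxa10, Hoxa11, Hoxa13, Hoxb1, Hoxb9, Hoxb13, Hoxc5, Hoxc8, Hoxc10, Hoxc11, Hoxc12, Hoxc13, Hoxd8, Hoxd10, Hoxd11 and Hoxd13). Of all protein-coding genes, 66.7% had it in at least 1 mouse. By position, 11 of the 12 genes of groups 1 to 4 had it in some mouse, 8 of the 11 genes of groups 5 to 8, and 3 of the 16 genes of groups 9 to 13, namely Hoxc9, Hoxd9 and Hoxd12. All genes of groups 10, 11 and 13 were without a K4me3 peak in every mouse. The posterior minus anterior difference in covered bases was -1.25 points ± 3.56, with 6 mice on either side of 0 (p = 0.343, exact sign-flip permutation test). Among cluster ends, Hoxa13, Hoxb13, Hoxc13, Hoxd13 and Hoxb1 had no K4me3, Hoxd1 had it in WT1, EZ3 and KR3, and Hoxc4 in KR1.

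The genes whose K4me3 cover set groups apart were Hoxa5, Hoxb7 and Hoxc9. Hoxa5, a gene of lung and neck patterning, had 650, 501 and 1296 bp in WT mice and none in any EZ or KE mouse. KR mice had 707, 0 and 501 bp. The difference from WT was -816 bp in both EZ and KE. The peaks of WT1 and WT3 covered the Hoxa5 TSS, and the stretch shared by the 5 mice with a peak lay in its coding sequence.

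Hoxb7 had 675, 1335 and 2059 bp in WT mice, and in 8 of the 9 mutant mice its window held no K4me3. The exception was KR1, with 501 bp, still below every WT mouse. The difference from WT was -1356 bp in EZ and KE and -1189 bp in KR. In WT1 and KR1 the peak was one that lay over the UTR of its neighbour Hoxb8, 1836 bp from the Hoxb7 TSS. WT2 had the peak over the Hoxb7 start itself and WT3 had both.

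Hoxc9 had 1026, 957 and 798 bp in WT mice. In KR mice it had 981, 501 and 807 bp, so the WT and KR ranges overlapped. EZ mice had 0, 501 and 0 bp and KE mice none. KE was therefore apart from KR as well (difference -763 bp), and the differences from WT were -927 bp in KE and -760 bp in EZ. The KR peaks were all under 1 kb. With such peaks left out, KE and KR did not differ here and the differences from WT were smaller.

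Of the Hox genes with any K4me3 in the mice compared, these were 3 of 20 in EZ and 3 of 20 in KE (lower than WT), 1 of 21 in KR (lower than WT) and 1 of 16 in KE against KR (lower). Among all genes with K4me3, 2.12%, 2.55%, 3.14% and 2.27% were lower in the same way, and 8.25%, 4.6%, 3.79% and 5.72% were higher, where no Hox gene was. With WT1 left out, 8 of 18 genes in EZ and 8 of 17 in KE were below both remaining WT mice, the same 8 in each (among them Hoxa5, Hoxb2, Hoxb4, Hoxb5, Hoxb6, Hoxb7 and Hoxc9), against 5.60% and 6.10% of all genes. In KR 3 of 19 were (Hoxb5, Hoxb6 and Hoxb7), against 6.25%. The genes depended on the WT mouse left out. With WT2 left out instead, Hoxb2, Hoxb5 and Hoxb6 (0 bp in WT1) and Hoxb4 (501 bp) would drop from the EZ and KE lists. Hoxb8, Hoxd3 and Hoxd9 would enter them, at 610, 940 and 1348 bp in WT1 and 354, 780 and 1048 bp in WT3. EZ and KE were compared with the same WT mice, so these lists are not independent.

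Hoxd9 and Hoxd12 kept K4me3 in 11 mice each. Hoxd9 had 1348, 799 and 1048 bp in WT, 0, 836 and 674 bp in EZ, 913, 636 and 1280 bp in KR, and 800, 885 and 501 bp in KE. For Hoxd12 the values were 942, 501 and 652 bp in WT, 501, 686 and 501 bp in EZ, 501, 753 and 656 bp in KR, and 501, 501 and 0 bp in KE. Groups overlapped at both genes. Hoxa7 and Hoxc6 were called in all 12 mice through peaks near alternative starts. Near the representative TSS, Hoxa7 had K4me3 in WT2, KR1, KR3 and KE1 only and Hoxc6 in WT1 only. Hoxb4 had 501, 2522 and 966 bp in WT, 0, 610 and 0 bp in EZ, 2826, 0 and 0 bp in KR, and 501, 0 and 0 bp in KE, so single mice of other genotypes reached or passed WT values. At the alternative Hoxa7 start the peak measured 883, 973 and 626 bp in WT, 629, 784 and 759 bp in EZ, 1262, 501 and 627 bp in KR, and 628, 762 and 636 bp in KE.

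Merged over all mice, the K4me3 peaks formed 29 regions, 7 in HoxA, 11 in HoxB, 5 in HoxC and 6 in HoxD. WT mice held 28 of them, KR mice 21, EZ mice 14 and KE mice 10, counting a region seen in at least 1 mouse. The shares of the 33865 regions of the genome were 83.3%, 83.1%, 82.2% and 80.5% in the same order. Of the KR mice, KR1 had 18 K4me3 peaks in the clusters and KR2 and KR3 had 9 each. WT mice had 16, 19 and 21, EZ mice 4, 11 and 9, and KE mice 10, 6 and 4. The regions seen in WT or KR mice and in no EZ or KE mouse numbered 14, and there was no region of the reverse kind. Over the genome, 12.3% of the regions, merged in the same way, were of the first kind and 7.98% of the reverse. Among the 14, KR3 had K4me3 only in the region at Hoxa5 and KR2 only in 1 near Hoxd3. The other KR calls among them were those of KR1. Of the 14, 4 were seen in 1 mouse only. Leaving out such regions, 10 of 25 were of the first kind and none of the reverse, against 5.42% and 3.3% over the genome. In 3 regions (0.142% over the genome) K4me3 was present in all 3 WT mice and in no KE mouse, and 2 of these were in no EZ mouse (0.1%): at Hoxa5, at Hoxc9, and 4617 bp from the Hoxc9 TSS over coding sequence and UTR of the same gene. The last, at chr15:102981527-102981771, was the one region found in all 3 WT mice and in no other mouse, with 628, 501 and 501 bp.

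The HoxB region between Hoxb5 and Hoxb4, whose centre is printed above, was present in all 12 mice. Its core lay under K27me3 in every mouse but WT1. The region measured 1082, 1444 and 1275 bp in WT, 1057, 1051 and 1234 bp in EZ, 1319, 934 and 916 bp in KR, and 1048, 1018 and 627 bp in KE. Its core lay 4630 bp from the nearest annotated TSS, that of Hoxb5os, and 6727 bp from that of Hoxb4, so no gene count above includes it. The HoxC region measured 1259, 1347 and 1401 bp in WT, 1242, 1253 and 1110 bp in EZ, 1360, 1134 and 1266 bp in KR, and 1203, 1119 and 1085 bp in KE. It lay 1119 bp from an upstream start of Hoxc6, and its core was free of K27me3 in WT1 and WT3, under it in part in EZ1, EZ2, KR2, KE2 and KE3, and under it in full in the other 5 mice.

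**Figure D5:**
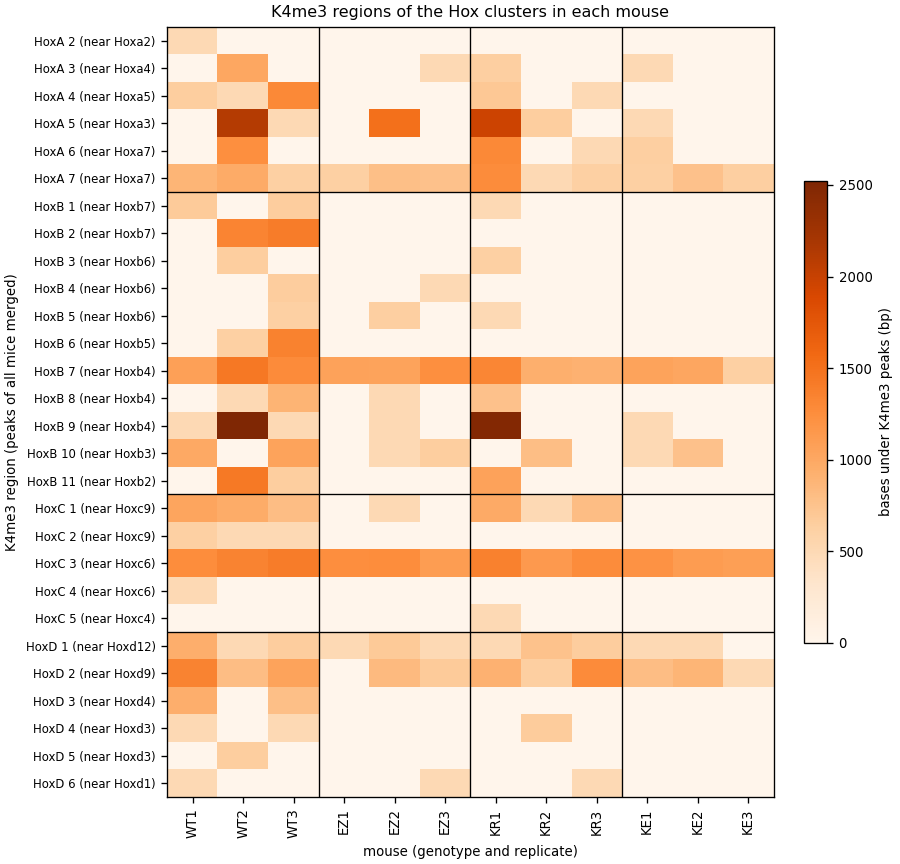
Bases under K4me3 peaks (bp) in 28 of the K4me3 regions of the clusters (rows, named by cluster, number and nearest Hox TSS) in each mouse (columns). Regions HoxA 7, HoxB 7 and HoxC 3 are filled in all 12 mice, and 13 of those shown are filled in WT or KR mice and in no EZ or KE mouse.

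Most Hox K4me3 bases lay within K27me3 peaks in every mouse but WT1. In WT mice 28.7%, 98.6% and 83.3% of the Hox K4me3 bases were under a K27me3 peak of the same mouse. The shares were 71.0%, 89.3% and 99.0% in EZ, 88.2%, 79.5% and 100% in KR, and 100%, 81.1% and 70.5% in KE. Over the genome the share was 9.30% in WT2 and 0.396% to 2.61% in the other mice. The clusters themselves were almost wholly under K27me3, and set against the K27me3 cover of the clusters in the same mouse, the share was lower in 9 mice and higher in 3 (EZ3, KR3 and KE1). EZ1 had 71.0% against 93.0% and KE3 70.5% against 97.5%. Both marks within 3 kb of a TSS were found at 11, 16 and 17 Hox genes in WT mice, and in the 9 mutant mice at every Hox gene with K4me3. Since every Hox gene had K27me3 outside WT1, this count equals that of genes with K4me3 in the other 11 mice, and its differences (-9.33 genes for KE and -8 for EZ against WT) are not a separate result. In all 3 mice of a genotype both marks were called at 7 genes in WT (Hoxa5, Hoxa7, Hoxb3, Hoxb7, Hoxc6, Hoxc9 and Hoxd12), 3 in EZ, 5 in KR and 3 in KE, against 1.22%, 1.64%, 1.95% and 2.65% of all genes. The mutant lists were the K4me3 lists given above. Hox K4me3 peaks were also narrow, with a median width of 564.5 to 957 bp per mouse against 1372 to 1716 bp for all peaks, and 39 of 136 (28.7%) were at the 501 bp minimum, against 11.3% of all K4me3 peaks.

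Among the microRNA genes inside the clusters, K4me3 was found near 1. RefSeq lists miR-10a in HoxB and miR-10b in HoxD, which share a seed, and miR-196a-1 in HoxB, miR-196a-2 in HoxC and miR-196b in HoxA, which share another. Their mature 5p sequences are printed because the 2 members of the miR-10 family differed in K4me3. Capitals mark the seed, bases 2 to 8.
mmu-miR-10a-5p: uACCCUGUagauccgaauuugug
mmu-miR-10b-5p: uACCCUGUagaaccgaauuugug
mmu-miR-196a-5p: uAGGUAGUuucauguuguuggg
mmu-miR-196b-5p: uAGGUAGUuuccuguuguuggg
Within 3 kb of Mir10a, K4me3 covered 501, 2831 and 1397 bp in WT mice, 0, 1002 and 0 bp in EZ, 3165, 0 and 0 bp in KR, and 501, 0 and 0 bp in KE. This window overlaps that of Hoxb4, so the values are not separate from those of the gene. Mir10b, Mir196a-1, Mir196a-2, Mir196b and Mir615 had none in any mouse. K27me3 covered Mir196b and Mir196a-2 in full in all 12 mice, and Mir10b and Mir196a-1 in full in every mouse but WT1, where they had 0 bp. Of the 13 noncoding genes of the clusters listed, all 13 had K27me3 in the 11 other mice and 9 in WT1. K4me3 was found at 3, 5 and 5 of them in WT, 0, 1 and 1 in EZ, 3, 0 and 1 in KR, and 1, 0 and 0 in KE, with Hotair, the HoxC transcript, and Hottip, at the posterior end of HoxA, at 0.

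The genes around the clusters differed in K27me3. Of 10 flanking genes, Evx1 and Evx2, the homeobox genes next to Hoxa13 and Hoxd13, had K27me3 in 12 mice and K4me3 in none. Hibadh, Ttll6 and Smug1 had no K27me3 in any mouse, and K4me3 in 12, 11 and 12 mice. Lnpk, next to Evx2, had K27me3 in 11 and K4me3 in 12 mice. Per mouse, 3 to 7 of the 10 had K27me3 and 7 or 8 had K4me3. The 9 genes for Hox cofactors of the Pbx, Meis and Pknox families had K4me3 in all 12 mice. K27me3 was called at 5 of these in WT2, at 2 in KE1, at 1 in each KR mouse and at none in the other 7. Of the 7 ParaHox, Cdx and Evx genes, Pdx1, the pancreatic regulator, and Gsx1 had K4me3 in 12 mice and the others in none. K27me3 was called at 3 of the 7 in WT1, at all 7 in WT2 and at 4 to 6 in the others.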

How the data were processed

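The authors checked reads with FastQC, aligned them to mm10 with Bowtie2 and called peaks separately for each animal (HOMER, histone setting) over the matching input. Versions are not given in the sources used here. The deposited lists give peak starts and ends, and a score column that the authors left at 1 for every peak and that was not used. Replicates were not pooled, and inputs were not analyzed here. K27me3 peaks were at least 5001 bp and K4me3 peaks at least 501 bp wide.

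Peaks were compared with GENCODE M21. A gene was called when 1 bp or more of a peak lay within 3 kb of any annotated TSS. Covered bases used 1 TSS per gene (APPRIS principal, then longest coding sequence). Windows of 8 pairs of neighbouring Hox genes overlap. Mice were grouped by the labels and are biological replicates by their titles, and sex is not in the labels. Group means were tested with exact permutation (two-sided), and p-values were adjusted by the Benjamini-Hochberg method over 20 comparisons of measures, 32 of single clusters, 6 tests over 12 mice and 5 interactions. Members and lists were chosen with earlier results of these data known. Genes given with values were the 3 with the largest difference among those apart between groups, those at cluster ends, and those with both marks in all 3 mice of a genotype. Genes with K4me3 in 12 mice or in none were named. Hoxb4, Hoxd9, the K27me3 of Hoxb7 and Hoxb8 and the single K4me3 regions were chosen after their values were seen. So were the genes named with WT2 left out and the named immune genes. Single items are not reported here.

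The study states no pairing of mice by replicate number. Deviations from group means of same-numbered mice correlated between -0.674 and 0.492 for K4me3 over 14097 genes. For number 3 all were positive (0.072 to 0.474, mean 0.213), while the means for numbers 1 and 2 were -0.136 and -0.145. Interval sums and tests were checked on simulated peaks. Python 3.11.15, numpy 2.4.6, scipy 1.17.1 and pysam 0.24.0 were used. Alternatives were equal numbers of the widest peaks, minimum widths, merged peaks, other windows, TSS and overlaps, 10 kb flanks, medians, the replicate number as a block and each mouse left out.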

Additional observations from a re-analysis of the deposited data

How the results depend on the processing

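The 8 differences in Hox K4me3 kept their direction in all 100 alternatives that could change them, and 7 of the 8 in K27me3 in 69 of 79. The other, genes with K27me3 in KE against KR, was 0 and has no direction. These are not independent of each other, and the counts of both marks largely repeat those of K4me3. Sizes changed more: with a minimum K4me3 width of 1 kb the differences from WT fell to -5 (KE) and -4.67 (EZ) genes with K4me3, and without WT1 the KE minus WT share of K27me3 was 1.67 points. The changes of direction, or to or from 0, were in K27me3: with the median of 3 mice the covered share was -0.343 points in KE against KR, the genes with K27me3 differed by 0 from WT in KR, KE and EZ, and with a 1 kb window KE exceeded KR by 0.333 genes. Leaving out 1 mouse, the covered share ranged from -0.033 to 26.5 points (KR minus WT), -0.592 to 2.87 (KE minus KR) and -1.27 to 25.3 (EZ minus WT), and genes with K27me3 from 0 to 2.5 in KR, KE and EZ against WT. The lowest values against WT came without WT1.

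Single clusters changed direction as follows. For K27me3 the ranges were -4.47 to 17.5 (HoxA, KR minus WT), -1.26 to 20.7 (HoxA, EZ minus WT), -3.43 to 27.3 (HoxB, EZ minus WT), -3.27 to 1.01 (HoxB, KE minus KR), -0.640 to 1.18 (HoxC, KE minus KR), -2.85 to 32.5 (HoxD, KR minus WT) and -0.107 to 7.40 points (HoxD, KE minus KR). For K4me3 they were -2.35 to 0.640 (HoxA, KR minus WT) and -1.73 to 0.095 (HoxB, KE minus KR). The difference between KE minus KR and EZ minus WT ranged from -23.6 to 2.97 points of K27me3 cover and from -2.5 to 0 genes with K27me3.

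The posterior minus anterior difference in K27me3 was 3.01 points with equal numbers of peaks (adjusted p = 0.075), 2.31 as a median (0.0844), 4.88 with a 1 kb window (0.103) and 2.69 to 4.28 with 1 mouse left out, by exact sign-flip permutation tests over mice. The other 5 tests over mice kept their side of the threshold.

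The gene lists were short, so single peaks moved them. With at least 2 of 3 mice, K4me3 was called at 17 genes in WT, 6 in EZ and 5 in KE, and both marks at 16, 6 and 5. With 1 TSS per gene, K4me3 was called at 1 gene in EZ, 3 in KR and 1 in KE, and both marks at 4 in WT, 1 in EZ, 3 in KR and 1 in KE. With equal numbers of the widest peaks (21420 for K27me3, 17400 for K4me3), K4me3 was called at 3 genes in WT and 1 in each other genotype, and both marks at 2 and 1. With a 1 kb window, K4me3 was called at 5 genes in WT, and both marks at 3 in WT and 3 in KR. Without 1 mouse, K4me3 ranged from 9 to 14 (WT), 3 to 6 (EZ) and 3 to 5 (KE), and both marks from 7 to 14, 3 to 6 and 3 to 5. With a minimum K4me3 width of 1 kb, Hoxc9 differed by -342 bp in KE and EZ against WT and by 0 in KE against KR, and with equal numbers of peaks by -661 bp in KE against WT. The causes of these changes were not tested.

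With the replicate number as a replicate block, the KE minus WT difference was -10.3 genes with K4me3 (exact sign-flip permutation p = 0.25, the smallest that 3 pairs allow), which equals the unblocked difference by construction. The study states no pairing by these numbers. With no read counts, a missing peak may lie below the caller's threshold or its minimum width.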
